A study of Rattus norvegicus with 10 samples.

Results

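The genes described here belong to families of enzymes that oxidise, hydrolyse or conjugate foreign and endogenous small molecules. Their RNA was measured in rat lung, and neither protein nor enzyme activity was. They were taken by name from the authors' table of 1319 genes: Fmo2, Ephx1, Gstt3 and every gene whose symbol begins with Cyp and a digit, apart from Cyp2f4. The rule found 11 genes, 8 of them cytochromes P450 (Cyp1b1, Cyp2a3, Cyp2b2, Cyp2e1, Cyp4f6, Cyp26a1, Cyp26b1 and Cyp51), and all 11 passed the filter on low values. A gene is in that table only if the authors' unadjusted p-value for the genotype comparison was under 0.05. The members were thus selected on the measured difference between genotypes, which is given below as a description. RNA was sequenced from lung of Sprague Dawley rats, an outbred laboratory strain, at 8 weeks of age. The wild-type (WT) group had 5 libraries and the Cmg2-KO group, which lacks the receptor CMG2 (also called ANTXR2), had 5. The labels name no treatment, sex, cage or batch, do not describe the knockout allele (Antxr2 itself was not analysed here), and do not say whether each library came from a separate animal. Any p-value therefore measures the spread among these libraries, which may be technical.

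The label of xenobiotic enzymes covers only some of these genes. Flavin-containing monooxygenases and cytochromes P450 add oxygen to drugs and toxicants, epoxide hydrolase opens the reactive epoxides that P450s can make, and glutathione S-transferases couple electrophiles to glutathione. In lung these enzymes are known from club cells, alveolar type 2 cells, endothelium and mesenchyme, where they can both detoxify and activate inhaled compounds. Cyp26a1 and Cyp26b1 instead break down retinoic acid, Cyp51 demethylates lanosterol on the way to cholesterol, and Cyp4f6 belongs to a family that hydroxylates fatty acids and eicosanoids.

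Promoter sequence is shown only for genes that held a match to the motif marked in them, so the choice rests on that match. Fmo2 and Gstt3, described below in as much detail, held no match to any motif searched and are not shown. The sequences are the 250 bases before the annotated start, from RefSeq on the rat build GRCr8, on which all 11 genes were matched by symbol, and the coordinates below are on that build only. Capitals mark TTATGNAA (the D-box and C/EBP type of site) in Cyp2a3 and Cyp2b2, the direct repeat of AGTTCA with 5 bases between in Cyp26a1, GCGTG (the core bound by the aryl hydrocarbon receptor with Arnt) in Cyp1b1, and TGACNNNGC (the antioxidant response core) in the downstream of both Ephx1 starts. Each motif was searched on both strands, and lower-case letters carry no match to the motif named for that gene.
Cyp2a3, chr1:91299334-91299583, plus strand: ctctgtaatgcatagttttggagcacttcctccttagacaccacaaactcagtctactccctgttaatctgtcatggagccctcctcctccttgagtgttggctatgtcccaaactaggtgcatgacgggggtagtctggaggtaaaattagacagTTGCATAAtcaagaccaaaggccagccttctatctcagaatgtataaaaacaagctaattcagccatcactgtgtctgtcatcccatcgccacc
Cyp2b2, chr1:90722031-90722280, plus strand: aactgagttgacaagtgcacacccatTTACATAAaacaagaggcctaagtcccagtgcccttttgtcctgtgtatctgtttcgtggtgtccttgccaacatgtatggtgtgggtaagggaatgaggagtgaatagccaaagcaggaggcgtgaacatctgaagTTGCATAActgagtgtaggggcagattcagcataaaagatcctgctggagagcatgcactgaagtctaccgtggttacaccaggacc
Cyp26a1, chr1:244883572-244883821, plus strand: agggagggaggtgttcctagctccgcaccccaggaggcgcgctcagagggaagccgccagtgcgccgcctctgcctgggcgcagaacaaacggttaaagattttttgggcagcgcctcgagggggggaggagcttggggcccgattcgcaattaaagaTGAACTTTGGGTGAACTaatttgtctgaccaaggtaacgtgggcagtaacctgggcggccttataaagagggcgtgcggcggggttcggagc
Cyp1b1, chr6:21094315-21094564, plus strand: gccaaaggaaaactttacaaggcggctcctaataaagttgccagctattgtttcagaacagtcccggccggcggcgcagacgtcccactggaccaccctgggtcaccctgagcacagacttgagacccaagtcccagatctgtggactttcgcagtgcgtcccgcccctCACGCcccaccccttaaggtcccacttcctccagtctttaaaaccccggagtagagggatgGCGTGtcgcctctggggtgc
Ephx1, chr13:95263118-95263367, minus strand: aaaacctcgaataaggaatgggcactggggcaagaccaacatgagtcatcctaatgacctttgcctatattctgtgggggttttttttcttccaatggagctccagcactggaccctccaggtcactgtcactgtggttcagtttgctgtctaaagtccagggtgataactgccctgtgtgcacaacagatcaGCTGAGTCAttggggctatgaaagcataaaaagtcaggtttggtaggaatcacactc
The match in Cyp2a3 begins 94 bases before the start and the nearer match in Cyp2b2 begins 87 bases before it, and both read TTGCATAA, a match on the other strand. A second match in Cyp2b2, TTACATAA, begins 224 bases before the start. Among 33469 promoter windows of 300 bases (250 before the start and 50 after it), 3.66% held TTATGNAA, and Cyp2a3 and Cyp2b2 were the only 2 of the 11 genes that did. The direct repeat in Cyp26a1, of the kind bound by retinoic acid receptors, begins 92 bases before the start and was found in 3 of the 33469 windows (0.00896%). Only repeats of exactly AGTTCA were counted, so that share leaves out variant spellings of such repeats. GCGTG was common, in 29.7% of windows, and was found in 6 of the 11 genes, with matches beginning 81 and 20 bases before the Cyp1b1 start. TGACNNNGC was in 12.1% of windows and in 2 of the 11 genes, Ephx1 and Cyp26b1. CACGTG, the E-box, was in 6.42% of windows and in none of the 11 genes. These matches describe letters in a window and are not evidence of binding.

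In lung lacking Cmg2, the enzymes best known for foreign compounds averaged lower, together with the retinoic acid hydroxylase Cyp26b1, while 3 P450s of retinoid, sterol and fatty acid metabolism averaged higher. Of the 11 genes, 8 averaged lower in Cmg2-KO (Fmo2, Ephx1, Gstt3, Cyp1b1, Cyp2e1, Cyp2a3, Cyp2b2 and Cyp26b1) and 3 higher (Cyp26a1, Cyp51 and Cyp4f6), where 51.8% of the table's genes were lower. Fmo2, Ephx1 and Gstt3 were named in the rule with earlier results of these data known, so their direction adds nothing to the count. Of the 8 P450s, taken by symbol, 5 were lower. The genotype contrast put all 11 genes in the table, so no split by substrate is read from their directions. Values are scaled counts, the read counts per gene that the authors divided by a size factor for each library. The largest difference was at Cyp2a3, 6.15-fold lower in mean scaled count, followed by Cyp26a1 at 2.37-fold higher and Gstt3 at 2.33-fold lower. The other 8 genes differed by 1.70-fold or less. The median log2 fold change was -0.49 over the 11 genes and -0.15 over the 1308 genes tested.

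In the limma fit across the whole table, 0 of the 11 genes had an adjusted p under 0.05 (Benjamini-Hochberg), where 0.229% of tested genes did, and 10 of the 11 had an unadjusted limma p under 0.05, as did 1035 of the 1308 genes tested. By the authors' deposited table, Gstt3 was the 1 gene of the 11 with an adjusted p under 0.05, where 5.46% of the table's genes did. The genotypes did not overlap at 2 of the 11, Gstt3 and Cyp26a1, where 16.3% of the table's genes showed such a separation. By direction, 1 was lower (Gstt3, against 7.05% of the table's genes) and 1 higher (Cyp26a1, against 9.25%). Nothing is read from these shares, since the same contrast put the genes in the table. In the authors' deposited table the unadjusted p ran from 1.11e-08 for Gstt3 to 0.0395 for Cyp2b2, the gene nearest the limit of 0.05. P450 genes past that limit were not analysed here. RefSeq names 90 protein-coding Cyp genes on GRCr8, of which 9 were in the table, Cyp2f4 included.

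**Figure D1:**
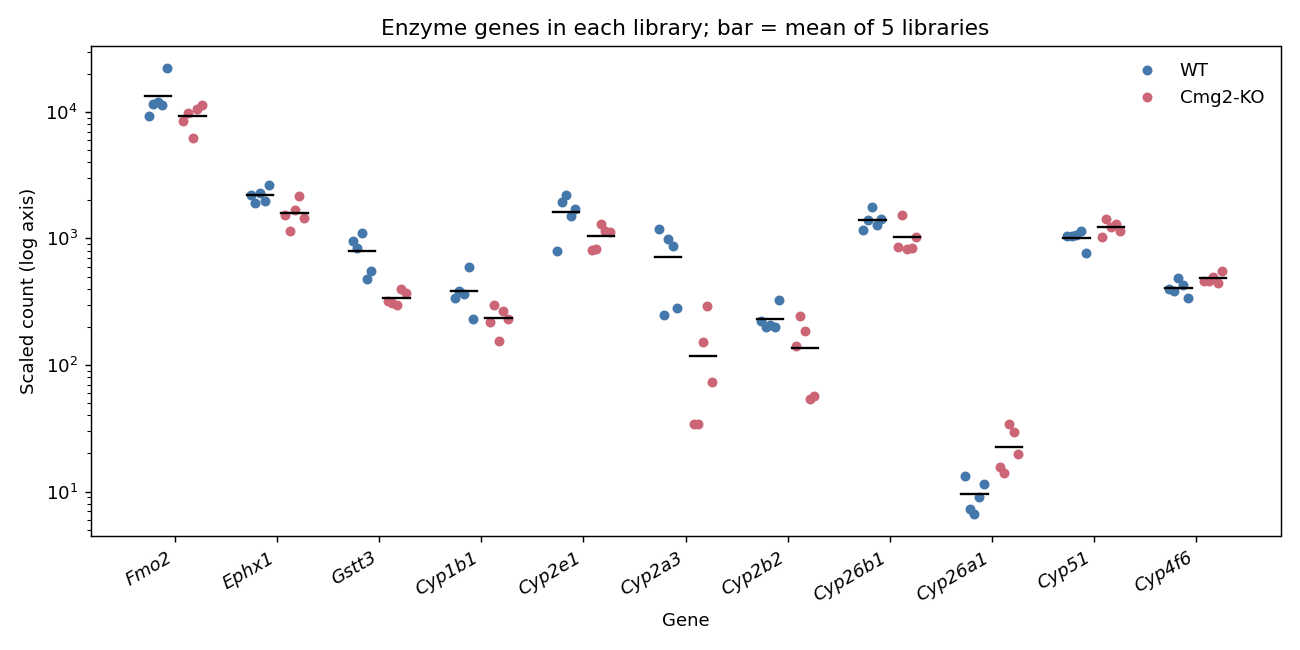
Scaled count (log axis) of the 11 genes in each of the 5 WT (blue) and 5 Cmg2-KO (red) libraries, with black bars for the mean of each genotype. At Gstt3 the 5 Cmg2-KO libraries, at 296 to 397, lie below all WT libraries, and at Cyp26a1 the 5 Cmg2-KO libraries, at 14.1 to 34.5, lie above all of them, while the other 9 genes overlap.

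**Figure D2:**
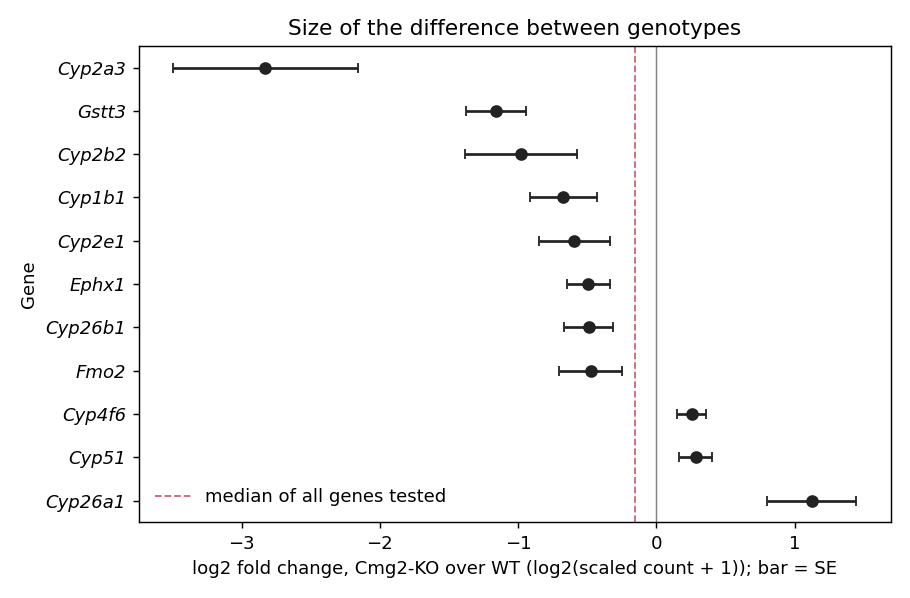
Difference of the knockout from WT in log2(scaled count + 1), the log2 fold change (horizontal axis), for each of the 11 genes, as points with bars of 1 SE from limma. The dashed line is the median of all genes tested, at -0.15, and Cyp2a3 is farthest from it at -2.83.

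Levels were compared between genes per kilobase of the authors' gene model, as scaled counts per kb. In WT lung Fmo2 stood highest at 6615 ± 2517 scaled counts per kb (SD, n = 5), followed by Ephx1 at 1146 ± 150 and Cyp2e1 at 699.8 ± 232. The libraries of Fmo2 did not overlap those of Ephx1, nor those of Ephx1 the libraries of Cyp2e1. Gstt3, Cyp26b1, Cyp51, Cyp4f6, Cyp2b2, Cyp2a3 and Cyp1b1 then followed in that order, each overlapping its neighbours, from 442 ± 149 down to 69.6 ± 24.1 scaled counts per kb. Cyp26a1 was lowest at 5.32 ± 1.55, below all libraries of Cyp1b1. In Cmg2-KO the first 3 places were the same, with Fmo2 at 4631 ± 1006 scaled counts per kb. Cyp2a3 stood at 20.4 ± 19.0 there, next to last, and its libraries overlapped those of Cyp26a1 at 12.6 ± 4.94. Gstt3 stood at 189.5 ± 23.8 scaled counts per kb, below the means of Cyp51, Cyp4f6 and Cyp26b1, which it had exceeded in WT. The authors' gene model has 5712 bases for Cyp2a3 and 1506 for Cyp2b2. A longer model lowers the value per kb, so the place of Cyp2a3 in both orders depends on its model.

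**Figure D3:**
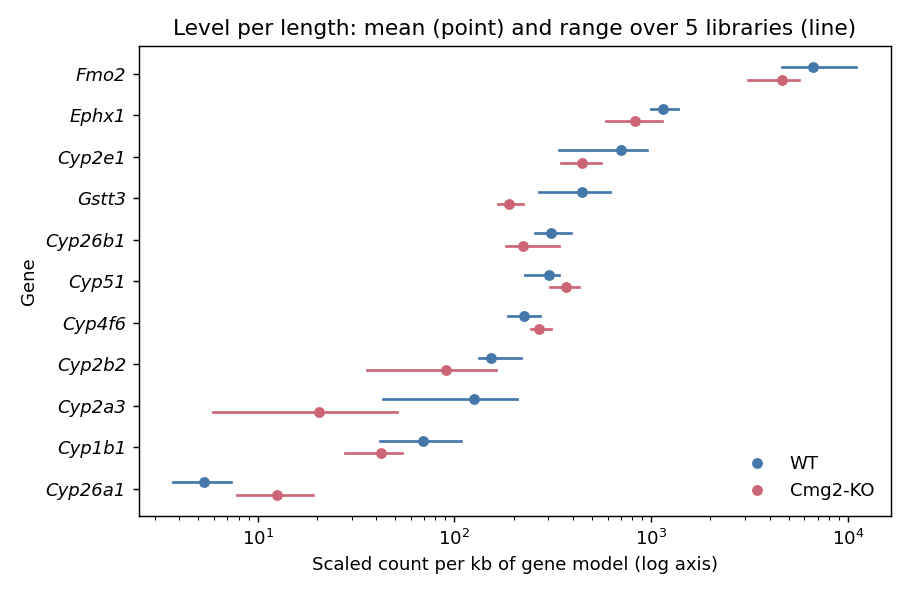
Scaled counts per kb of gene model (log axis) for the 11 genes, ordered by the WT mean, with the mean as a point and the range of 5 libraries as a line for WT (blue) and Cmg2-KO (red). Fmo2 lies highest in both genotypes and Cyp26a1 lowest, and the Cyp2a3 point moves from 126 in WT to 20.4 in Cmg2-KO.

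Fmo2 is a gene of the flavin-containing monooxygenase family. It lies on the minus strand of chromosome 13 at 80755058 to 80775264 in the authors' table, which names no build. Its scaled counts were 9315, 11600, 12034, 11381 and 22150 in WT 1 to 5 and 8487, 9816, 6240, 10631.5 and 11368 in Cmg2-KO 1 to 5. WT 5 stood far above all other libraries, 3 further WT libraries lay just above the highest Cmg2-KO library, and WT 1 lay within the Cmg2-KO range. The means were 13296 ± 5059 and 9308 ± 2021 (SD, n = 5 each), and limma gave a log2 fold change of -0.48 with an SE of 0.23 (adjusted p = 1) and -0.28 without WT 5. Of 21 listed clock and clock-output genes 6 were in the table, all with lower means in Cmg2-KO and none past an adjusted p of 0.05 by limma or the authors' deposited table. Of these, 5 were highest in WT 5, and Usp2 was highest in WT 2, at 123 scaled counts against 122 in WT 5. The 6 genes together had summed scaled counts of 6395 in WT 5 and 2093 to 4064 in the other WT libraries. Their sums in Cmg2-KO were 1544 to 2548. After removal of genotype means, r of Fmo2 was 0.70 with Per2, 0.54 with Hlf and 0.27 with Per3. None of these relations passed (adjusted permutation p = 0.376, 0.534 and 0.803). The part of the clock genes in the Fmo2 difference was not tested.

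Ephx1, the microsomal epoxide hydrolase, lies on chromosome 13 at 99271366 to 99300579 on the minus strand. Its scaled counts were 2218, 1908, 2277, 1972 and 2635 in WT 1 to 5 and 1520, 1139, 1677, 2168 and 1445 in Cmg2-KO 1 to 5. Cmg2-KO 4 lay inside the WT range and the other 4 Cmg2-KO libraries lay below all of WT. The means were 2202 ± 288 and 1589.7 ± 378 (SD, n = 5 each), and limma gave a log2 fold change of -0.49 with an SE of 0.15 (adjusted p = 0.727). Ephx2, which encodes the soluble epoxide hydrolase, was also in the table, with means of 195 ± 45.1 and 143 ± 17.4 scaled counts (SD, n = 5 each). After removal of genotype means, r of Ephx1 was 0.61 with Per2, 0.72 with Per3 and 0.62 with Hlf. None of these passed either (adjusted permutation p = 0.176, 0.261 and 0.298), and the part of clock genes in the Ephx1 difference was not tested.

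Gstt3, a theta-class glutathione S-transferase on chromosome 20 (13817795 to 13825475, plus strand), separated the genotypes without overlap. Its scaled counts were 959, 845, 1108, 479 and 557 in WT 1 to 5 and 320, 311, 296, 397 and 368 in Cmg2-KO 1 to 5. WT 4 and WT 5 stood well below the other 3 WT libraries, and all 5 Cmg2-KO libraries were lower still. The SD of log2 values was 0.52 in WT and 0.18 in Cmg2-KO. The means were 789.7 ± 266 and 338 ± 42.6 (SD, n = 5 each), and limma gave a log2 fold change of -1.16 with an SE of 0.22 (adjusted p = 0.282). The authors' deposited table lists an adjusted p of 2.45e-05. The count tests left out WT 4, the lowest WT library for Gstt3, and without it limma gave a log2 fold change of -1.32 (adjusted p = 0.0953). On the recovered reads of the same 9 libraries DESeq2 gave -1.36 (adjusted p = 3.20e-08) and edgeR -1.36 (adjusted p = 0.147), so that Gstt3 passed with DESeq2 and not with limma or edgeR. The table's nearest gene, Ddt, lies 1.66 kb away, and its log2 fold change in the authors' deposited table was -0.17. Whether reads were shared between Gstt3 and other theta-class genes was not examined, and the kit name does not say that strand was kept.

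Cyp1b1 and Cyp2e1, P450s that act on aromatic hydrocarbons and on small molecules such as ethanol, both averaged lower, with ranges that overlapped between genotypes. Cyp1b1 (chromosome 6, 2307808 to 2316722, minus strand), a target of the aryl hydrocarbon receptor, had scaled counts of 338, 386, 364, 595 and 230 in WT 1 to 5. The 5 Cmg2-KO libraries, in order, had 219, 299, 154, 267 and 233. WT 5 lay within the Cmg2-KO range and the other 4 WT libraries above it, with WT 4 highest. The means were 383 ± 133 and 234 ± 54.7 (SD, n = 5 each), and limma gave a log2 fold change of -0.67 with an SE of 0.24 (adjusted p = 0.807). Of 12 fibroblast markers 2 were in the table, Dcn and Pi16, both with lower means in Cmg2-KO, and neither passed an adjusted p of 0.05 by limma or the authors' deposited table. The summed scaled counts of the pair were 1957 to 5256 over the WT libraries, highest in WT 4, against 1509 to 2669 for the knockout, and their part in the Cyp1b1 difference was not tested. In bulk lung, fewer cells of a type and less RNA per cell cannot be told apart.

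Cyp2e1 (chromosome 1, 213511874 to 213535542, plus strand) had scaled counts of 794, 1948, 2215, 1498 and 1694 in WT 1 to 5. Cmg2-KO 1 to 5 had 812, 818, 1294, 1152 and 1125. WT 1 was the lowest of all 10 libraries, whereas the other 4 WT libraries lay above all of Cmg2-KO. The means were 1629.9 ± 539 and 1040.2 ± 215 (SD, n = 5 each), and limma gave a log2 fold change of -0.59 with an SE of 0.26 (adjusted p = 0.903) and -0.83 without WT 1. Liver and fat express Cyp2e1 strongly. Of 11 hepatocyte markers 1 was in the table, the fibrinogen gene Fgg, and it was higher in Cmg2-KO, at 1527 to 2709 scaled counts against 705 to 1964 in WT. Of 12 adipocyte markers 3 were in the table, Lipe and Retn lower and Pck1 higher, with summed scaled counts of 1464 to 2523 in WT and 1172 to 1777 in Cmg2-KO. Their part in the Cyp2e1 difference was not tested.

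Cyp2a3 and Cyp2b2 lie in a P450 cluster on chromosome 1 and had the widest ranges of the 11 genes within Cmg2-KO. Cyp2a3, a P450 known from rat lung and nasal mucosa, spans 83653234 to 83766484 on the plus strand. Its gene model, at 5712 bases, is the longest of the 11. Whether that model takes in parts of neighbouring genes was not examined, so the counts may not be of Cyp2a3 alone. The scaled counts of Cyp2a3 were 1181, 247, 999, 879 and 281 in WT 1 to 5 and 33.9, 34.3, 151, 291 and 72.8 in Cmg2-KO 1 to 5. WT 2 and WT 5 stood far below the other 3 WT libraries, and Cmg2-KO 4 reached their level while the other 4 Cmg2-KO libraries lay below all of WT. The highest library was 4.79 times the lowest within WT and 8.59 times within Cmg2-KO. The means were 717 ± 428 and 117 ± 109 (SD, n = 5 each), and limma gave a log2 fold change of -2.83 with an SE of 0.67 (adjusted p = 0.553). The authors' deposited table lists an adjusted p of 0.0614.

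Cyp2b2, a P450 known for induction by phenobarbital, lies 534 kb away at 83103925 to 83119193 on the plus strand. Its scaled counts were 222, 200.2, 209, 201 and 327 in WT 1 to 5 and 141, 245, 187, 53.9 and 57.2 in Cmg2-KO 1 to 5. Cmg2-KO 4 and Cmg2-KO 5 stood apart at the bottom, Cmg2-KO 2 lay within the WT range, and the other 2 lay between. The means were 232 ± 53.9 and 137 ± 82.9 (SD, n = 5 each), and limma gave a log2 fold change of -0.98 with an SE of 0.41 (adjusted p = 0.877). Cyp2b2 has a near-identical relative in Cyp2b1, and the Cyp2a genes are also close copies, so the levels of both are uncertain to the extent that reads were shared. RefSeq on GRCr8 places 12 Cyp genes from Cyp2b2 to Cyp2f4, and 3 of them, those at the ends and Cyp2a3, were in the table, all lower. The table holds 6.63% of the genes in the authors' adjustment, and 51.8% of its genes were lower. Cyp2a3 and Cyp2b2 are described here because they were in the table, so nothing is read about the cluster.

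Variation among libraries of the same genotype was compared for the neighbours. Cyp2f4, the club cell P450 that lies 167 kb from Cyp2a3, had scaled counts of 1223, 336, 767, 874 and 590 in WT 1 to 5. Its Cmg2-KO libraries had 182, 120, 260, 859 and 209. Its highest Cmg2-KO library, Cmg2-KO 4, was also the highest for Cyp2a3. After removal of genotype means Cyp2a3 followed Cyp2f4 over the 10 libraries (r = 0.90, permutation p = 0.000300, adjusted p = 0.0132; rho = 0.89, permutation p = 0.000940, adjusted p = 0.0414). It also followed Agr2, a protein disulphide isomerase of mucous and club cells (r = 0.90, permutation p = 0.000140, adjusted p = 0.0123; rho = 0.95, permutation p = 0.000350, adjusted p = 0.0308). Without the 2 libraries farthest from the Cyp2a3 median, r was 0.89 with Cyp2f4 and 0.86 with Agr2. These relations were 2 of 88 between the 11 genes and 8 other genes, airway and clock genes among them, chosen after the values were seen, and the only 2 that passed. With each library left out in turn, r stayed between 0.87 and 0.93 for Cyp2f4 and between 0.85 and 0.93 for Agr2, while the adjusted p reached 0.0682 and 0.182, both without WT 2. It exceeded 0.05 for both relations without WT 2, WT 5, Cmg2-KO 1, Cmg2-KO 2 or Cmg2-KO 5, and for Cyp2f4 also without Cmg2-KO 3 or Cmg2-KO 4 (0.0524 each).

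For Cyp2b2 r was -0.48 with Cyp2a3 (permutation p = 0.252, adjusted p = 0.827; rho = -0.27, permutation p = 0.512), and -0.24 without the 2 farthest libraries. With Cyp2f4 it was -0.56 (permutation p = 0.173, adjusted p = 0.534; rho = -0.39, permutation p = 0.336), and 0.06 without the 2 libraries farthest from the Cyp2b2 median. Neither relation passed. The same Cmg2-KO 4 library that was highest for Cyp2a3, at 291 scaled counts, was lowest for Cyp2b2, at 53.9. Markers of club and other secretory cells, 4 of 14 on a list, were Scgb1a1, Cyp2f4, Agr2 and Bpifb1, all with lower means in Cmg2-KO and none past an adjusted p of 0.05 by limma or the authors' deposited table. Their summed scaled counts, nearly all from Scgb1a1, were 144340 to 196851 over the WT libraries. The Cmg2-KO libraries had 84396 to 176966, highest in Cmg2-KO 4. After removal of genotype means, r of Cyp2a3 with Scgb1a1 was 0.59 (permutation p = 0.115, adjusted p = 0.510), and rho was 0.37 (permutation p = 0.366). With Bpifb1 r was 0.73 (permutation p = 0.00240, adjusted p = 0.0528). So Cyp2f4 and Agr2 passed and these 2 markers did not. The part of the 4 markers in the lower Cyp2a3 level was not tested.

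**Figure D4:**
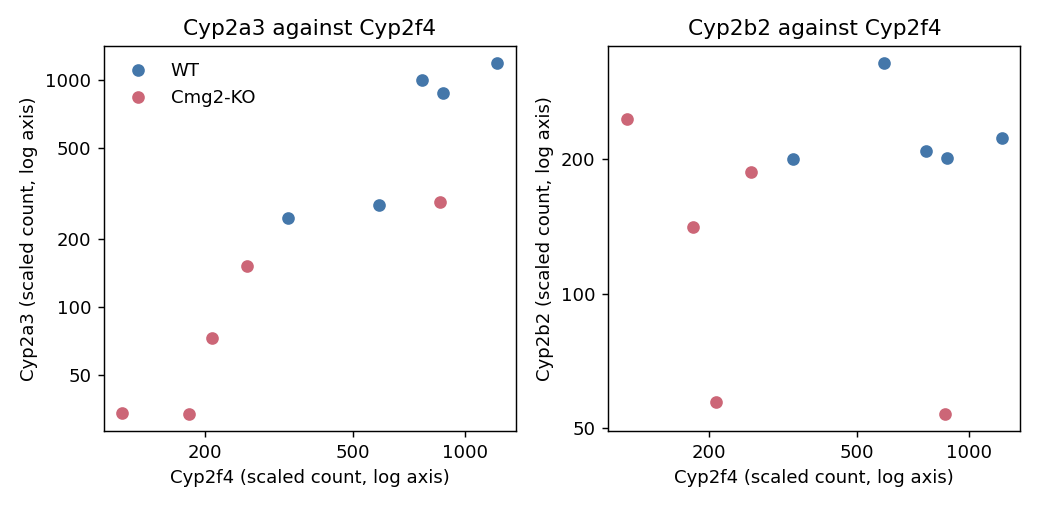
Scaled counts (log axes) in each WT (blue) and Cmg2-KO (red) library, with Cyp2a3 against Cyp2f4 on the left and Cyp2b2 against Cyp2f4 on the right. Cyp2a3 is higher where Cyp2f4 is higher in both genotypes (r = 0.90 within genotypes), and Cyp2b2 against Cyp2f4 gives r = -0.56.

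The P450s that clear retinoic acid differed in opposite directions. Cyp26a1 (chromosome 1, 256382791 to 256386729, plus strand) had scaled counts of 13.2, 7.26, 6.66, 9.10 and 11.6 in WT 1 to 5. Cmg2-KO 1 to 5 had 15.6, 14.1, 34.5, 29.3 and 19.8, all above WT. The means were 9.56 ± 2.79 and 22.6 ± 8.88 (SD, n = 5 each), and limma gave a log2 fold change of 1.12 with an SE of 0.32 (adjusted p = 0.671). One read is worth about 1 scaled count, so counting error is large at this level. Cyp26b1 (chromosome 4, 116261796 to 116278615, minus strand) had scaled counts of 1173, 1389, 1773, 1272 and 1421 in WT 1 to 5. Cmg2-KO 1 to 5 had 858, 1545, 827, 842 and 1030. Cmg2-KO 2 lay within the WT range and the other 4 Cmg2-KO libraries below it. The means were 1406 ± 228 and 1020.4 ± 304 (SD, n = 5 each), and limma gave a log2 fold change of -0.49 with an SE of 0.18 (adjusted p = 0.805). Per kb, Cyp26b1 stood at 309 scaled counts in WT, with a range of 258 to 389.6, against 5.32 for Cyp26a1. Within genotypes the correlation of the pair was negative (r = -0.70, permutation p = 0.0374; rho = -0.76, permutation p = 0.0348), but the adjusted p was 0.803 for r and 0.659 for rho over the 55 pairs of the 11 genes. Without the 2 libraries farthest from the Cyp26a1 median r was -0.60.

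Cyp51 and Cyp4f6 were higher in Cmg2-KO by small amounts. Cyp51 (chromosome 4, 27175243 to 27194018, plus strand) had scaled counts of 1046, 1052, 1063, 1137 and 766 in WT 1 to 5. The knockout libraries had 1023, 1434, 1242, 1306 and 1147. Cmg2-KO 1 lay within the WT range and WT 5 lay below all other libraries. The means were 1013 ± 143 and 1230.3 ± 156 (SD, n = 5 each), and limma gave a log2 fold change of 0.28 with an SE of 0.12 (adjusted p = 0.880) and 0.19 without WT 5. Cyp4f6 (chromosome 7, 15198940 to 15225410, minus strand) had scaled counts of 397, 384, 491, 430 and 337 in WT 1 to 5. Cmg2-KO 1 to 5 had 464, 465, 494, 443 and 556, so that only WT 3 reached the Cmg2-KO range. The means were 408 ± 57.2 and 484 ± 44.0 (SD, n = 5 each), and limma gave a log2 fold change of 0.26 with an SE of 0.10 (adjusted p = 0.869).

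Deviations from the genotype mean do not use the contrast that chose the genes, and across pairs of the 11 genes they correlated about as often above 0 as below it. The 55 pairs of the 11 genes had a median r of -0.06 over the 10 libraries, against 0.01 for all 854778 pairs of tested genes, and 26 of the 55 were above 0. No pair passed an adjusted permutation p of 0.05, and 1 pair, Cyp26a1 with Cyp26b1, had an unadjusted p under 0.05. The highest r was 0.70, between Cyp1b1 and Cyp51 (permutation p = 0.0584, adjusted p = 0.803; rho = 0.83, permutation p = 0.00848, adjusted p = 0.466), and it was 0.39 without the 2 libraries farthest from the Cyp1b1 median. For Ephx1 with Cyp26a1 r was 0.68 (permutation p = 0.0533, adjusted p = 0.803; rho = 0.64, permutation p = 0.0797, adjusted p = 0.829), and 0.82 without the 2 libraries farthest from the Cyp26a1 median. Among the libraries, Cmg2-KO 1 was above its genotype mean at 1 of the 11 genes and Cmg2-KO 4 at 8 of them, and the WT libraries at 4 to 7. The median SD of log2 values within WT was 0.38 over the 11 genes and 0.28 over the 1308 genes tested, and within Cmg2-KO 0.34 and 0.24.

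**Figure D5:**
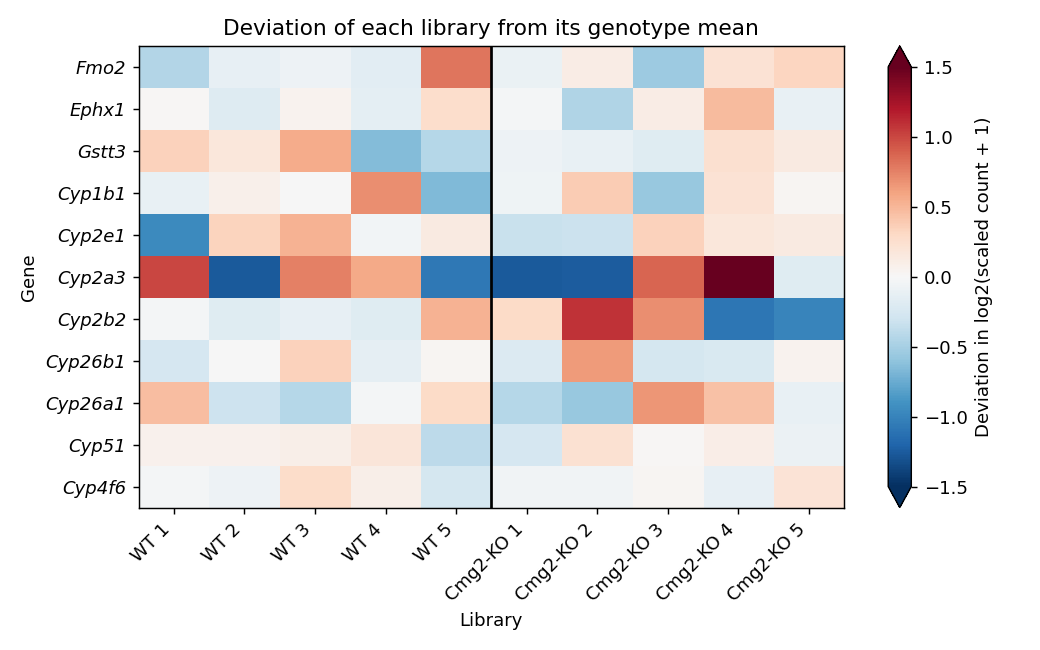
Deviation of each library (columns) from its genotype mean in log2(scaled count + 1) for each of the 11 genes (rows), red above and blue below, with the colour scale capped at both ends. Cyp2a3 and Cyp2b2 carry the strongest colours and differ in sign in Cmg2-KO 1, Cmg2-KO 2 and Cmg2-KO 4, and no library is red or blue throughout.

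The genes most like each of these in library-to-library deviation were drawn from 785 named genes of the table with a mean of at least 50 scaled counts. As the best of many, they are given as a description over 10 libraries, without a test. For Cyp2a3 they were Ttc29 (r = 0.96, rho = 0.84), Mrps27 (r = 0.93, rho = 0.84), a mitochondrial ribosomal protein gene, and Sidt1 (r = 0.92, rho = 0.85). For Fmo2 they were Scnn1a (r = 0.91, rho = 0.87), which encodes the alpha subunit of the epithelial sodium channel, Slit3 (r = 0.91, rho = 0.78), a guidance ligand, and Ptpn9 (r = 0.91, rho = 0.96), a tyrosine phosphatase. Ephx1 was most like Pkp3 (r = 0.89, rho = 0.81), a desmosomal plakophilin, Adhfe1 (r = 0.88, rho = 0.76) and Cygb (r = 0.83, rho = 0.76), which encodes cytoglobin. Gstt3 had lower values of r, with Sorbs2 (r = 0.70, rho = 0.81), Flt3 (r = 0.66, rho = 0.64) and Bmpr1b (r = 0.65, rho = 0.81) the nearest. Cyp1b1 was nearest to Slc26a9 (r = 0.86), Ikzf4 (r = 0.85) and the elastic fibre gene Emilin1 (r = 0.85), and Cyp2e1 to Ssbp4 (r = 0.91), RT1-CE5 (r = 0.89) and Slc52a3 (r = 0.83). Without the 2 farthest libraries the r for Cyp2e1 was 0.55 to 0.72.

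Cyp2b2 was nearest to Ppp1r2 (r = 0.89), Ephb6 (r = 0.81) and Rsad2 (r = 0.79), an interferon-induced gene. Cyp26a1 was nearest to Tmem159 (r = 0.90), Klhl4 (r = 0.88) and Oscp1 (r = 0.87), and Cyp26b1 to Ppp2cb (r = 0.90), Strn4 (r = 0.89) and the non-muscle myosin gene Myh10 (r = 0.82). Cyp4f6 was nearest to L1cam (r = 0.92), Gnb1l (r = 0.91) and Gpatch2 (r = 0.90). Cyp51 was nearest to Dhrs9 (r = 0.91), Gprin3 (r = 0.88) and Wt1 (r = 0.86), a mesothelial transcription factor, and its r was 0.23 without the 2 farthest libraries. No gene was among the nearest 3 of more than 1 of the 11.

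Other listed enzymes of oxidation, hydrolysis and conjugation were lower where they were in the table. Of 30 further genes of oxidation, reduction and hydrolysis, 5 were in the table (16.7%) and all were lower. The whole table holds 6.63% of the genes in the authors' adjustment, and 51.8% of its genes were lower. Among the 5 were Ephx2, xanthine dehydrogenase (Xdh), the aldehyde dehydrogenase Aldh1a7 and the carboxylesterase Ces1f. Xdh had a WT mean of 6237 ± 1604 scaled counts and a knockout mean of 4659 ± 284 (SD, n = 5 each), and Aldh1a7 means of 80.3 ± 33.2 and 35.2 ± 22.4. Of 29 conjugation genes 3 were in the table, all lower, namely the sulphotransferase Sult1a1, the glutathione S-transferase Gsta3 and the microsomal Mgst2. Sult1a1 averaged 5221 ± 1165 and 3746 ± 299 scaled counts. By limma or the authors' deposited table, none of these 8 genes had an adjusted p under 0.05. Both lists were chosen with earlier results of these data known, so nothing is read from their shares or directions.

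Regulators and their known targets were counted against the 6.63% of adjusted genes that the table holds. Of 18 regulators, among them Ahr, Arnt, Nr1i2, Nr1i3 and Nfe2l2, 1 was in the table (5.56%), Hlf, a PAR bZIP factor of clock output, with means of 135 ± 71.5 (WT) and 68.3 ± 16.3 (knockout) scaled counts (SD, n = 5 each). WT 5 had 256 scaled counts of Hlf and the other WT libraries 70.1 to 135. Of 8 aryl hydrocarbon receptor targets 1 was in the table (12.5%), Cyp1b1 itself. Of 14 Nrf2 targets 2 were (14.3%), Ephx1 and Gsta3, the latter at 82.4 ± 13.0 and 59.4 ± 12.0 scaled counts. Cyp1b1 and Ephx1 are members of the set described here, which was itself drawn from the table, so nothing is read from these 2 shares. None of these regulators and targets passed an adjusted p of 0.05, whether by limma or the authors' deposited table.

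Each library's scaled counts over the table added up to 1386578 to 1531531, and total depth is unknown. Lung markers were abundant where they were in the table, with Scgb1a1 at 84205 to 195238 and the surfactant gene Sftpb at 42132 to 65237 scaled counts. Of 10 alveolar type 2 markers 2 were in the table, both lower in Cmg2-KO, and of 9 alveolar type 1 and 10 ciliated markers none was. Of 11 smooth muscle markers 9 were in the table, all with lower means in Cmg2-KO, and of 10 mesothelial markers 6 were, all with higher means. The whole table holds 6.63% of the genes in the authors' adjustment, and 51.8% of its genes were lower. These shares are the background for each marker and clock list above. The genotype contrast put these markers in the table, and none passed an adjusted p of 0.05 by limma or the authors' deposited table. Their part in the differences of the enzyme genes was not tested.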

How the data were processed

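Lung RNA for 10 libraries (5 WT, 5 Cmg2-KO, grouped by title) was extracted with Trizol and prepared with the NEBNext Ultra kit, per the labels' protocols. The submitters' processing notes name HISAT2 2.0.5 and featureCounts 1.5.0-p3. A genome build, and the tool behind the authors' p-values, is not given in the sources used here. The single deposited table holds genes whose unadjusted p-value was under 0.05. Its signal columns are read counts divided by a size factor per library by the authors: 100% of values were whole multiples of 1 read (tolerance 0.02 reads), worth 0.869 to 1.11 scaled counts. Further deposited columns are p-values, a fold (ratio), its log2 value, coordinates and gene length, per the file headers.

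Log2(scaled count + 1) was fitted with limma 3.58.1 (trend, robust; R 4.3.3) for the 1308 genes with a value over 0.5 in 5 or more libraries. Benjamini-Hochberg adjustment was made over 19894 genes, the number implied by the authors' adjusted p-values (6 genes depart from it). EdgeR 4.0.16 and DESeq2 1.42.0 on recovered whole reads of 9 libraries, without WT 4, were alternatives. WT 4 was left out although its values were also whole multiples of 1 read. These tests thus differ from the main limma fit in libraries as well as in method. Correlations used deviations from genotype means with 100000 two-sided permutations of libraries within genotype. The series' design gives a higher number of replicates than the 5 used here. Genes named are the members, listed genes of fixed pathway and marker lists, and the 3 genes most correlated with each member. Some results on listed genes are not reported here. Members and lists were chosen with earlier results of these data known. Scripts were tested on simulated data. Scaled counts carry no total depth, so precision is given by the spread of 5 libraries. Other settings are in the closing section. Same-numbered WT and Cmg2-KO libraries had correlations of -0.02 to 0.09 in their deviations, so the numbers were not taken as pairs.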

Additional observations from a re-analysis of the deposited data

Results flagged for a closer look

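Dixon's criterion was applied to the log2 values of each gene within each genotype: a highest or lowest library is marked when its gap to the nearest library exceeds 0.71 of the range. It was met in 2 of 22 groups, where chance at 1 in 20 gives about 1.1, and both times by WT 5. That library had 766 scaled counts of the sterol demethylase gene Cyp51, below 1046 to 1137 in the other WT libraries. It had 327 scaled counts of Cyp2b2, above 200.2 to 222 in the others.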

How the results depend on the processing

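All 8 lower and 3 higher genes kept their direction under the 19 alternatives run. Their median log2 fold change stayed between -0.61 and -0.48. The genes were in the table by this contrast in the same libraries, so a change of direction was unlikely from the start. Some alternatives, the replicate block among them, leave the fold changes as they are by construction. The number of table genes past the limma threshold, 3, moved to 49 with DESeq2 and 1 with edgeR, both run without WT 4. Limma without WT 4 again gave 3. The number was 257 when adjusted over the table alone and 0 with the replicate number as a block. It ran from 1 to 6 with a library left out. The cause was not tested, except that adjusting over fewer genes lowers the adjusted p by construction. Gstt3, Cyp2a3, Cyp26a1 and Ephx1 passed only when adjusted over the table alone (adjusted p = 0.0185, 0.0363, 0.0441 and 0.0478), and Gstt3 also with DESeq2. The replicate block left 899 genes at an unadjusted limma p under 0.05 against 1035 without it. No member pair passed under any of its 14 alternatives, the block included. The relations of Cyp2a3 with Cyp2f4 and Agr2, whose alternatives were chosen after seeing the data, kept r between 0.85 and 0.93. They lost their adjusted p in 8 and 6 of 13 alternatives, the block among them (adjusted p = 0.482 and 0.297). Cyp26a1 is limited by its few reads per library.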
